A study of Rattus norvegicus with 18 samples.

Results

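Expression of 38 genes of T cells, natural killer (NK) cells, and immune checkpoints, chosen by gene symbol, was examined in rat lung RNA-seq data. Of these, 37 were found in the deposited tables of 22081 genes, and the expression of *Il7r* was not analysed here. The genes were compared across 6 groups of 3 male F344/DuCrlCrlj rats. The MWCNT-treated rats received MWNT-7, a straight and rigid multiwalled carbon nanotube (MWCNT), by intratracheal instillation at 0.5 mg/kg body weight every 4 weeks from 9 weeks of age, and the control rats received only the vehicle, saline with Tween 80, on the same schedule. Lungs were taken at 3 time points, named Year 0.5, Year 1, or Year 2, which were weeks 26, 52, and 104 of the experiment and ages of 35, 61, and 113 weeks. Each rat was killed at 1 time point, so that time comparisons were between different animals, and in the treated rats age, the number of instillations, and the time since the first instillation cannot be told apart. RNA came from whole pieces of the accessory lobe in which no tumor nodule was seen, with all the cell types they contained. Levels are shares of the RNA of such bulk tissue. Fewer cells of a type, less RNA per cell, and more RNA from other cells cannot be told apart in them.

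T cells recognize antigen with a T cell receptor that signals through the CD3 chains, and the receptor is assisted by CD4 on helper T cells or by CD8 on cytotoxic T cells. Costimulatory receptors such as CD28 and ICOS strengthen this signal, and checkpoint receptors such as CTLA-4 and PD-1 dampen it, while regulatory T cells, which depend on the transcription factor FOXP3 and carry CTLA-4 in large amounts, restrain other T cells. NK cells and cytotoxic T cells kill target cells with granules of perforin and granzymes, and in the rat many NK cells carry CD8 alpha chains and many macrophages carry CD4, so that *Cd8a* and *Cd4* are not limited to T cells in this species.

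The members were inspected for shared letters in front of their genes, since T cell promoters are known to bind transcription factors of the ETS and RUNX families. In the RefSeq promoter table for the GRCr8 assembly, 30 of the 38 symbols, *Il7r* among them, had 31 promoters. *Cd6*, *Cd4*, *Cd8b*, *Lag3*, *Klrd1*, *Ncr1*, *Il2rb*, and *Cd40lg* had no entry. The 250 bases before the start site were searched on both strands. The ETS letters GGAAGT were present in 38.7% of the member promoters and in 19.2% of all 33465 promoters, and the RUNX letters TGTGGT in 45.2% and 14.5%. The T-box letters GGTGTGA were present in 6.45% and 3.22%, the GATA letters AGATAA in 9.68% and 10.3%, the NFAT letters GGAAAA in 6.45% and 21.6%, and the forkhead letters TGTTTAC in 0% and 3.22%. These are matches of letters, not binding sites. Sequences of 6 members are shown, with the ETS and RUNX letters of either strand in capitals, because they stand for the different courses described here. They were chosen after the counts of motifs were seen. *Cd3e* (chr8:54211771-54212020, minus strand) and *Prf1* (chr20:29788790-29789039, plus strand) were lower in treated rats at Year 2. *Cd28* (chr9:69660066-69660315, plus strand), *Ctla4* (chr9:69813171-69813420, plus strand), and *Icos* (chr9:69877549-69877798, plus strand) form a cluster on chromosome 9 whose members took different courses. *Havcr2* (chr10:31383675-31383924, plus strand) was higher in treated rats at all 3 time points.
Cd3e: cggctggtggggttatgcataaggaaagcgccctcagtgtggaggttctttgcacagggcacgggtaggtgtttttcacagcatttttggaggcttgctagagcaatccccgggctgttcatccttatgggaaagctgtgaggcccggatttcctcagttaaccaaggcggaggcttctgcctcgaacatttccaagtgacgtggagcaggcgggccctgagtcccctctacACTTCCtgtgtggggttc
Prf1: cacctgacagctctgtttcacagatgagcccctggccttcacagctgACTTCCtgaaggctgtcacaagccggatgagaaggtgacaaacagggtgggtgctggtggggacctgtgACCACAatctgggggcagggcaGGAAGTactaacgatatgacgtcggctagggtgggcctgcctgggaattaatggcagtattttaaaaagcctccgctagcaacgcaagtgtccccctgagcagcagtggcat
Cd28: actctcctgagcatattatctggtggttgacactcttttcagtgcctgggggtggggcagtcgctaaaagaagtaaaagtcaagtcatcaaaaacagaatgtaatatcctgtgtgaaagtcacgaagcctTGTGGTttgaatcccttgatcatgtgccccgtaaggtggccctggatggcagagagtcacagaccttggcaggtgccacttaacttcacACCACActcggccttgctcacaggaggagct
Ctla4: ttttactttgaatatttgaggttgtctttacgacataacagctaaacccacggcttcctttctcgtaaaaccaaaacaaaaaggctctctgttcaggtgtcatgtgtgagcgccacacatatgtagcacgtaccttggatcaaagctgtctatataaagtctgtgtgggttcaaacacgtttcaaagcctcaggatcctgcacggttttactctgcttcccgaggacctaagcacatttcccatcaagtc
Icos: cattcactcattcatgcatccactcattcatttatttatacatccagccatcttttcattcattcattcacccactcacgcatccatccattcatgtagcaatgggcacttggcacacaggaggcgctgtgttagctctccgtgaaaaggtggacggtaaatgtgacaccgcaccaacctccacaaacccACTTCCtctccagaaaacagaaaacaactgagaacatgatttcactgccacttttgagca
Havcr2: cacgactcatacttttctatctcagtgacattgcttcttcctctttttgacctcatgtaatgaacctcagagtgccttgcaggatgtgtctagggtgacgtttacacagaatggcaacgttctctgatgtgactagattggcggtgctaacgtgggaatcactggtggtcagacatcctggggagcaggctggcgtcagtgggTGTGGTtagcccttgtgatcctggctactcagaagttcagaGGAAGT
The *Cd3e* sequence holds 1 ETS match next to its start site, *Prf1* holds 2 ETS matches and 1 RUNX match, *Cd28* holds 2 RUNX matches, *Icos* holds 1 ETS match, and *Havcr2* holds 1 match of each. No such letters were found in these 250 bases of *Ctla4*.

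The control libraries held 13297643 to 17868851 counts each and the treated libraries 14661589 to 21130757. The T cell markers *Cd3d*, *Cd3e*, *Cd3g*, and *Cd247* had at least 28, 70, 37, and 89 counts in every rat, and the NK cell markers *Ncr1*, *Klrd1*, *Klrk1*, and *Nkg7* at least 42, 36, 73, and 165, so both labels of the gene set were borne out by detected markers. One treated rat of Year 2 (replicate 3) stood apart from its group. Of 31 members whose count was 10 or more in all rats, 8 were more than 2-fold above the mean of the other 2 rats in it, namely *Cd8a*, *Il2rb*, *Tbx21*, *Eomes*, *Prf1*, *Nkg7*, *Klrd1*, and *Ncr1*. One control rat of Year 2 (replicate 2) was above this limit for *Eomes* and *Klrd1*, and in each of the other 16 rats no more than 1 member was. The Year 2 values of these 8 genes are therefore also given without these rats.

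**Figure D1:**
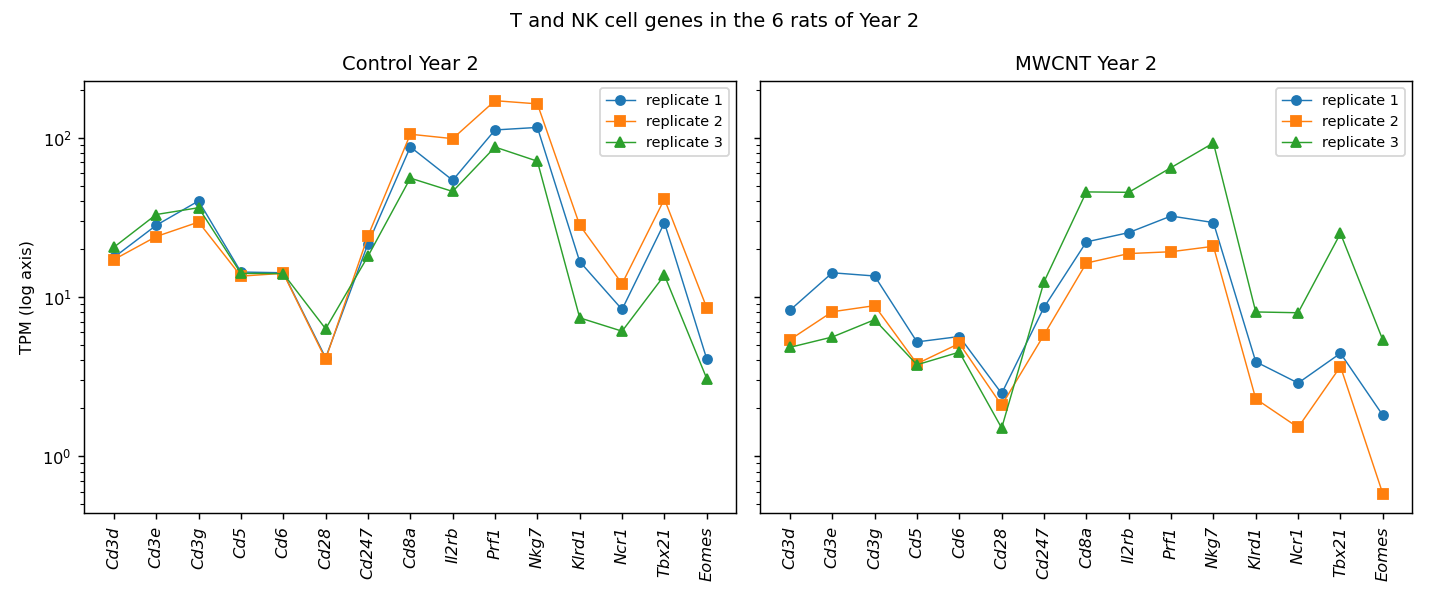
TPM on a log axis of 15 members in each of the 3 control rats (left) and 3 treated rats (right) of Year 2. Treated replicate 3 lies above the other 2 treated rats from *Cd247* to *Eomes* on the right of the panel, but not for *Cd3d*, *Cd3e*, *Cd3g*, *Cd5*, *Cd6*, or *Cd28*.

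At each time point a small group of genes that included *Cd4*, *Ctla4*, *Havcr2*, and *Foxp3* made up more of the RNA of treated rats. For *Foxp3* the levels of the groups overlapped at Year 2. A larger number of T and NK cell genes made up less of the RNA. More of the lower genes passed the fold limit at Year 2, but *Pdcd1* was the 1 member whose treatment effect differed between time points by edgeR's interaction test. Differentially expressed genes (DEGs) were those with a false discovery rate (FDR) below 0.05 over all genes tested by edgeR's quasi-likelihood test and an absolute log2 fold change above 1. At Year 0.5, 9 of 35 members tested were DEGs, against 9.1% of all genes tested. *Cd4*, *Icos*, *Ctla4*, *Pdcd1*, *Havcr2*, *Tigit*, and *Foxp3* were upregulated, against 6.07% of all genes, and *Cd40lg* and *Tbx21* were downregulated, against 3.03%. At Year 1, 6 of 35 members were DEGs, against 10.2% of all genes, with *Cd4*, *Ctla4*, *Havcr2*, and *Foxp3* upregulated (6.13% of all genes) and *Cd40lg* and *Tbx21* downregulated (4.09%). At Year 2, 19 of 34 members were DEGs, against 16.4% of all genes. Of these, 3 were upregulated (*Cd4*, *Ctla4*, and *Havcr2*), against 8.17% of all genes, and 16 were downregulated, against 8.22%.

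By FDR alone, 8 members were higher and 15 lower at Year 0.5, where 20.2% and 18.6% of all genes were. The numbers were 6 and 14 at Year 1 (21.6% and 19.6% of all genes) and 5 and 19 at Year 2 (25.2% and 24% of all genes). *Cd247*, *Lck*, *Zap70*, *Lat*, *Cd8a*, *Cd40lg*, *Gzmk*, *Prf1*, and *Klrd1* were lower by FDR alone at all 3 time points, and *Cd4*, *Ctla4*, *Havcr2*, and *Foxp3* were higher at all 3. The median log2 fold change of the members was -0.45 at Year 0.5, -0.50 at Year 1, and -1.03 at Year 2, beside medians of -0.02, 0.00, and -0.01 over all genes tested. Of the 34 members tested at all 3 time points, 24 had a negative and 7 a positive log2 fold change at each of them, and 26 had their lowest value at Year 2. In TPM, which is scaled to a fixed sum per rat, the treated group lay wholly below the controls for 22, 20, and 20 members at Years 0.5, 1, and 2, but so did 40.7%, 46.8%, and 45.7% of all genes. The treated group lay wholly above the controls for 8, 5, and 3 members, against 17%, 15%, and 18.1% of all genes. Without TMM scaling the median log2 fold change of all genes was shifted by -0.10, -0.13, and -0.17 at the 3 time points, and TPM values are likewise without TMM scaling, while the fold changes given here were relative to it. Limma on log2(TPM + 1) is without TMM scaling and also understates the change of low genes. With it, the DEGs lost were *Ctla4*, *Foxp3*, *Cd40lg*, *Pdcd1*, and *Tigit* at Year 0.5. At Year 1 they were *Ctla4*, *Foxp3*, *Cd40lg*, *Cd4*, and *Havcr2*, and at Year 2 *Ctla4*, *Havcr2*, and *Cd28*. *Cd4* was not a low gene, with at least 64.5 TPM in each rat of Year 1. With 0.1 TPM added in place of 1 TPM, *Cd4* at Year 1 and *Ctla4* and *Havcr2* at Year 1 and Year 2 were lost. Calls gained with these fits are not listed here.

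**Figure D2:**
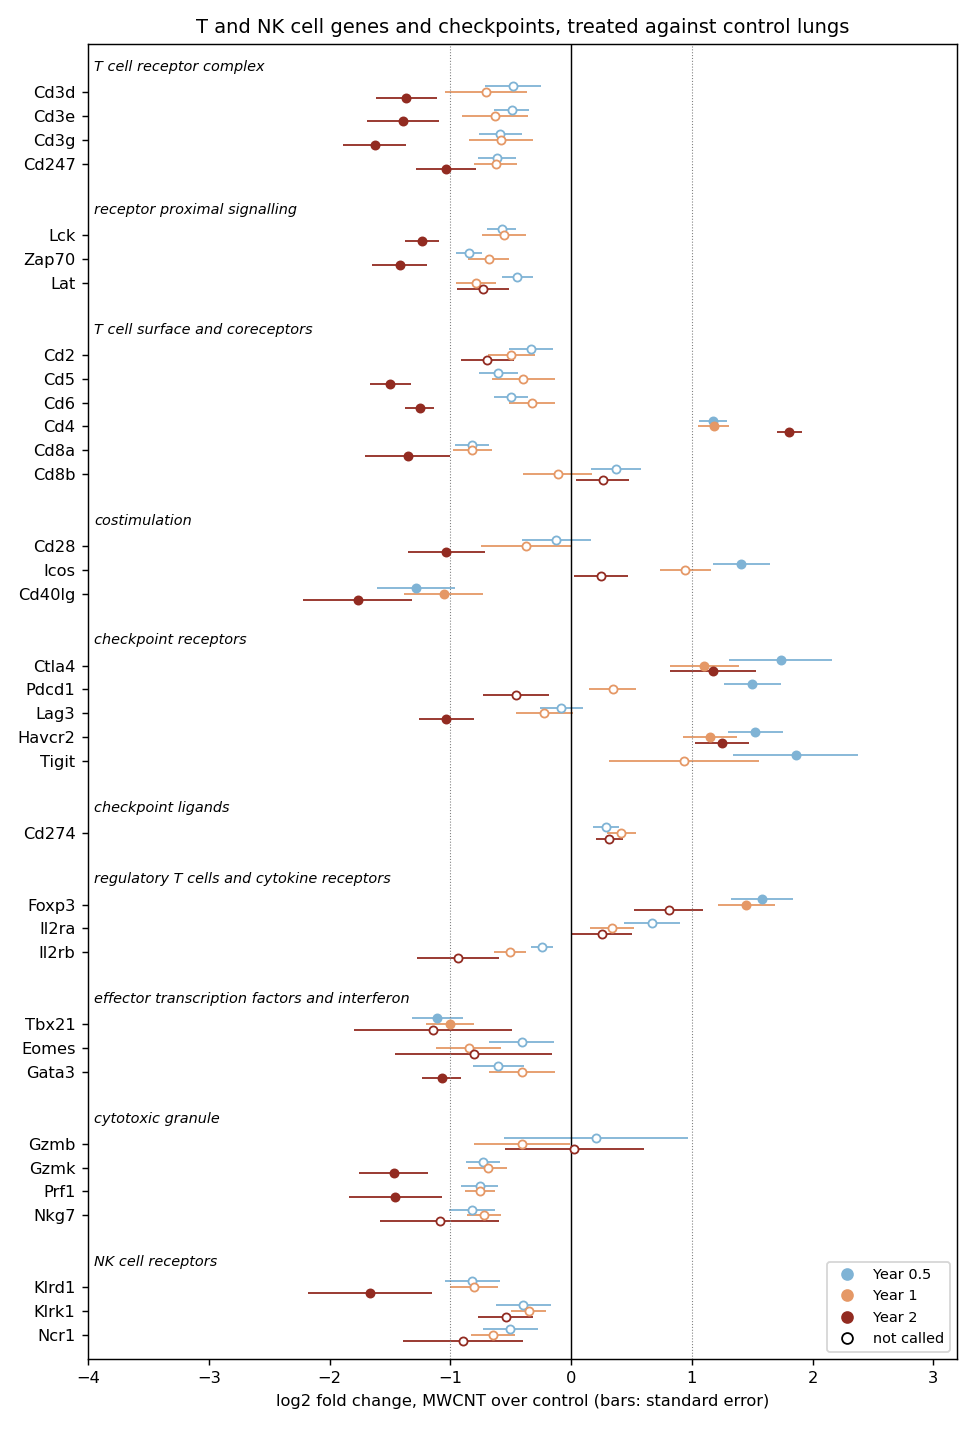
Log2 fold change of MWCNT-treated over control rats for the 35 tested members, ordered by role, at Years 0.5, 1, and 2 (bars, standard error of the edgeR fit; filled points, DEGs; dotted lines, log2 fold changes of -1 and 1). Most filled points on the left belong to Year 2, and *Cd4*, *Ctla4*, and *Havcr2* carry filled points on the right at all 3 time points.

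The genes of the T cell receptor complex were downregulated at Year 2. All 4 were DEGs at that time and none at Year 0.5 or Year 1. The Year 1 result rested on treated replicate 2, without which *Cd3d*, *Cd3e*, and *Cd3g* were DEGs there too (log2 -1.26, -1.08, and -1.02, edgeR FDR 0.00623, 0.00177, and 0.00197). *Cd3e* (ENSRNOG00000016069), a CD3 chain, had 18.8, 24.7, and 18.9 TPM in the controls and 14.7, 12.1, and 13.5 TPM in the treated rats at Year 0.5, 24, 21.7, and 24.1 against 8.17, 18.4, and 11.1 TPM at Year 1, and 28.2, 23.9, and 32.9 against 14.2, 8.07, and 5.6 TPM at Year 2. The groups did not overlap at any time point, and the gap was widest at Year 2, where controls had 28.3 ± 4.49 and treated rats 9.28 ± 4.41 TPM (mean ± SD, n = 3). Its log2 fold change was -0.49 ± 0.15 (± SE), -0.63 ± 0.27, and -1.39 ± 0.3, with edgeR FDRs of 0.0263, 0.0912, and 0.00406. *Cd3d* had 9.84, 16, and 13.1 TPM in the controls and 7.99, 8.33, and 8.88 TPM in the treated rats at Year 0.5, 15.8, 12.1, and 13.5 against 4.71, 11, and 5.36 TPM at Year 1, and 17.7, 17.1, and 20.5 against 8.24, 5.39, and 4.82 TPM at Year 2. Again the groups did not overlap, but treated replicate 2 of Year 1 stood near the controls. *Cd3d* fell 2.58-fold at Year 2 (log2 -1.36 ± 0.25, edgeR FDR 0.00195), and its log2 fold changes at Year 0.5 and Year 1 were -0.48 and -0.71, with FDRs of 0.134 and 0.129. *Cd3g* had 24, 32, and 28.3 TPM in the controls and 19.5, 15.3, and 16 TPM in the treated rats at Year 0.5, 33.2, 30.9, and 31.1 against 14.1, 25.8, and 13.3 TPM at Year 1, and 40.05, 29.5, and 36.3 against 13.5, 8.81, and 7.19 TPM at Year 2. All treated rats were below all controls of their time point, and at Year 2 the log2 fold change was -1.63 ± 0.26 (edgeR FDR 0.000796). *Cd247*, the zeta chain that carries the signal of the receptor and also of NK receptors, had 17.4, 19.8, and 14.7 TPM in the controls and 11.2, 8.53, and 11.1 TPM in the treated rats at Year 0.5, 18.2, 15.1, and 16.7 against 7.17, 10.7, and 9.41 TPM at Year 1, and 21.6, 24.1, and 18 against 8.59, 5.79, and 12.4 TPM at Year 2. It was lower by FDR alone at Year 0.5 and Year 1 and a DEG at Year 2 (log2 -1.04 ± 0.25, edgeR FDR 0.00713). That call was close to the fold limit and was lost without control replicate 1, control replicate 2, or treated replicate 2 (log2 -0.997, -0.952, and -0.790).

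The kinases next to the receptor were also downregulated at Year 2. *Lck*, the kinase that phosphorylates the CD3 chains, had 30.2, 41.9, and 32.6 TPM in the controls and 21.1, 20.7, and 21.8 TPM in the treated rats at Year 0.5, 40.6, 35.6, and 40.9 against 17.6, 28.5, and 21.1 TPM at Year 1, and 48.7, 62.6, and 42.5 against 19, 17.2, and 20.2 TPM at Year 2. The treated rats of Year 2 lay close together, below every control. *Lck* fell 2.35-fold at Year 2 (log2 -1.23 ± 0.14, edgeR FDR 0.000103) after log2 fold changes of -0.57 and -0.55 (FDR 0.00591 and 0.0381). *Zap70*, the kinase that docks on phosphorylated CD3 chains in T and NK cells, had 15.2, 16.1, and 14.9 TPM in the controls and 7.5, 7.67, and 8.16 TPM in the treated rats at Year 0.5, 19.98, 16.4, and 15.3 against 7.43, 10.3, and 9.47 TPM at Year 1, and 24.2, 33.2, and 19.3 against 7.35, 6.6, and 10.8 TPM at Year 2. No treated rat reached the lowest control of its time point, and the control group was highest at Year 2. Its log2 fold change was -0.84, -0.68, and -1.42 ± 0.23, with edgeR FDRs of 0.000419, 0.012, and 0.000836. The adaptor *Lat* was lower by FDR alone at each time point, with log2 fold changes of -0.45, -0.79, and -0.73.

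Among surface molecules, *Cd5* and *Cd6*, a neighbouring pair of receptors on T cells that tune T cell receptor signals, had control levels close together at Year 2. *Cd5* had 10.1, 10.01, and 8.92 TPM in the controls and 5.38, 6.72, and 5.08 TPM in the treated rats at Year 0.5, 12.6, 9.9, and 11.8 against 5.69, 10.4, and 5.72 TPM at Year 1, and 14.3, 13.5, and 14 against 5.22, 3.81, and 3.75 TPM at Year 2. At Year 2 it fell 2.82-fold without overlap (log2 -1.5 ± 0.17, edgeR FDR 0.000103). *Cd6* had 10.01, 11, and 8.21 TPM in the controls and 5.65, 6.19, and 6.92 TPM in the treated rats at Year 0.5, 12.2, 8.86, and 9.78 against 6.57, 8.41, and 5.76 TPM at Year 1, and 14.2, 14.1, and 14 against 5.64, 5.1, and 4.5 TPM at Year 2. It fell 2.39-fold at Year 2 (log2 -1.25 ± 0.12, edgeR FDR 3.97e-05), also without overlap. At Year 1 neither gene passed the FDR (log2 -0.4 and -0.33, FDR 0.247 and 0.20). *Cd2*, an adhesion receptor of T and NK cells, passed the FDR only at Year 2 (log2 -0.69, FDR 0.0275).

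*Cd4* rose while *Cd8a* fell. *Cd4* (ENSRNOG00000016294), the coreceptor of helper T cells that rat macrophages also carry, had 52.2, 61.9, and 62.9 TPM in the controls and 127, 131, and 103 TPM in the treated rats at Year 0.5, 66, 73.7, and 64.5 against 117, 151, and 123 TPM at Year 1, and 58.9, 63.1, and 67.3 against 201, 206, and 163 TPM at Year 2. Controls stayed between 52.2 and 73.7 TPM, and every treated rat had at least 103 TPM, with the highest values at Year 2. In order of time the rise was 2.26-fold, 2.27-fold, and 3.5-fold (log2 1.17 ± 0.11, 1.18 ± 0.13, and 1.81 ± 0.1, edgeR FDR 0.000107, 0.000164, and 2.24e-06). Macrophage markers moved with it. Of 10 such markers tested, 7, 6, and 8 were upregulated at the 3 time points and 1 was downregulated at Year 1, the summed level of the list was 351 to 450.1 TPM in the control rats and 890.2 to 1264 TPM in the treated rats, and no marker was at 0 in every rat of a group, although *Marco* was listed at 0 in 3 control rats. The part of these cells in the rise of *Cd4* was not tested.

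*Cd8a*, the CD8 alpha chain of cytotoxic T cells and many rat NK cells, had 42.1, 49, and 34.2 TPM in the controls and 24, 20.6, and 19.6 TPM in the treated rats at Year 0.5, 53.2, 43.5, and 47.6 against 19.7, 27.6, and 21.8 TPM at Year 1, and 87.4, 105, and 55.7 against 22.1, 16.3, and 45.6 TPM at Year 2. The groups did not overlap, although treated replicate 3 of Year 2, at 45.6 TPM, came near the lowest control. Its log2 fold change was -0.82 ± 0.14, -0.82 ± 0.16, and -1.36 ± 0.35, with edgeR FDRs of 0.00215, 0.00375, and 0.0106. The Year 2 value was -1.88 without treated replicate 3 (FDR 0.000887), -1.17 without control replicate 2 (FDR 0.0443), and -1.69 without both (FDR 0.00322). *Cd8b*, the beta chain found mainly on T cells with CD8, did not pass the FDR at any time point, with log2 fold changes of 0.37, -0.11, and 0.26 (FDR 0.187, 0.779, and 0.354). At Year 2 it was 8.6, 7.24, and 6.48 TPM in the controls and 9.3, 7.4, and 6.37 TPM in the treated rats, so the groups overlapped. In every treated rat the ratio of *Cd8a* to *Cd8b* was below that of every control of the same time point, by -1.19, -0.65, and -1.69 on the log2 scale. The ratio of *Cd8a* to *Cd4* was likewise lower in every treated rat, by -1.97, -2.0, and -3.23. *Cd8a* amounted to 82.8 to 166% in the controls and 7.95 to 28.1% in the treated rats at Year 2, relative to the TPM of *Cd4*.

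The costimulatory genes took different courses. *Cd28*, the main costimulatory receptor of resting T cells, had 4.42, 6.43, and 3.28 TPM in the controls and 3.53, 4.2, and 3.95 TPM in the treated rats at Year 0.5, 7.12, 2.84, and 6.28 against 2.47, 4.34, and 3.78 TPM at Year 1, and 4.15, 4.06, and 6.31 against 2.48, 2.09, and 1.5 TPM at Year 2. The groups overlapped at Year 0.5 and Year 1 and separated at Year 2. There it fell 2.05-fold (log2 -1.03 ± 0.32, edgeR FDR 0.0251), on 25, 24, and 16 counts in the treated rats. The call was lost with the replicate block (FDR 0.0632), without control replicate 3, treated replicate 2, or treated replicate 3 (FDR 0.089, 0.0614, and 0.0835), and without both rats that stood apart (FDR 0.0855). *Icos*, a costimulatory receptor induced on activated and regulatory T cells, had 3.64, 4.43, and 4.09 TPM in the controls and 7.75, 13, and 8.2 TPM in the treated rats at Year 0.5, 5.19, 5.45, and 5.02 against 6.93, 10.9, and 7.53 TPM at Year 1, and 5.52, 6.47, and 10.8 against 7.77, 7.81, and 7.54 TPM at Year 2. All treated rats were above all controls at Year 0.5 and Year 1, while at Year 2 control replicate 3 exceeded every treated rat. *Icos* rose 2.65-fold at Year 0.5 (log2 1.41 ± 0.24, edgeR FDR 0.00174), was higher by FDR alone at Year 1 (log2 0.95 ± 0.21, FDR 0.00741), and did not pass at Year 2 (log2 0.25 ± 0.23, FDR 0.394). *Cd40lg*, the CD40 ligand with which helper T cells activate B cells and macrophages, had 1.58, 1.73, and 2.25 TPM in the controls and 0.921, 0.493, and 0.667 TPM in the treated rats at Year 0.5, 1.68, 1.77, and 1.18 against 0.469, 0.728, and 0.654 TPM at Year 1, and 2.84, 2.11, and 2.21 against 0.294, 1.07, and 0.418 TPM at Year 2. No treated rat reached the lowest control of its time point. *Cd40lg* was downregulated at all 3 time points, by 2.44-fold, 2.08-fold, and 3.41-fold (log2 -1.29 ± 0.32, -1.06 ± 0.33, and -1.77 ± 0.45, edgeR FDR 0.0126, 0.0306, and 0.00991). It rested on 6 to 54 counts per rat. It was the 1 member that was downregulated at every time point, whereas *Cd4* was upregulated at each. The *Cd40lg* call was lost at Year 0.5 without treated replicate 2 (FDR 0.0611), at Year 1 without control replicate 1 or 2 or treated replicate 1 or 3 (FDR 0.0853, 0.104, 0.0907, and 0.0713), and at Year 2 without both rats that stood apart (FDR 0.0595).

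Of the checkpoint receptors, *Ctla4* and *Havcr2* were upregulated at all 3 time points. *Ctla4*, which competes with CD28 for its ligands and is abundant in regulatory T cells, had 0.702, 0.459, and 0.431 TPM in the controls and 1.13, 2.37, and 1.31 TPM in the treated rats at Year 0.5, 0.843, 0.997, and 1.08 against 1.8, 1.83, and 1.73 TPM at Year 1, and 1.15, 0.776, and 0.855 against 1.75, 2.3, and 1.4 TPM at Year 2. The groups did not overlap, and the treated level at Year 0.5 was led by replicate 2. *Ctla4* rose 3.33-fold, 2.15-fold, and 2.25-fold (log2 1.74 ± 0.43, 1.1 ± 0.28, and 1.17 ± 0.36, edgeR FDR 0.0117, 0.013, and 0.0226) on 6 to 49 counts per rat. The Year 0.5 call was also lost without treated replicate 2, and the Year 1 call without TMM scaling. The Year 2 call was lost with DESeq2, with the limma fits on TPM, with the replicate block, without control replicate 2 or 3 or treated replicate 1 or 2, and without both rats that stood apart, with log2 fold changes between 0.54 and 1.39 over all settings run. *Havcr2*, which encodes TIM-3, a receptor of exhausted T cells that macrophages and dendritic cells also carry, had 1.48, 2.03, and 2.06 TPM in the controls and 3.81, 5.07, and 5.57 TPM in the treated rats at Year 0.5, 2.51, 2.38, and 2.25 against 4.48, 5.41, and 3.45 TPM at Year 1, and 1.62, 2.16, and 2.07 against 4.71, 3.69, and 3.56 TPM at Year 2. No control had more than 2.51 TPM and no treated rat less than 3.45 TPM. *Havcr2* rose 2.88-fold, 2.22-fold, and 2.38-fold (log2 1.52 ± 0.23, 1.15 ± 0.22, and 1.25 ± 0.22, edgeR FDR 0.000985, 0.00364, and 0.00155). Besides the losses with limma, the Year 1 call was lost without treated replicate 2 (log2 0.93, FDR 0.0109). The macrophage markers moved in the same direction, with the values given for *Cd4*, and dendritic cell markers summed to 79.7 to 113 TPM in control and 151 to 211 TPM in treated rats. The dendritic cell markers did not all move together. At each time point 3 of 8 were upregulated, against 6.07%, 6.13%, and 8.17% of all genes, and 1 was lower by FDR alone. Their median log2 fold changes were 0.66, 0.49, and 0.23. The part of macrophages and dendritic cells in the rise of *Havcr2* was not tested.

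*Pdcd1*, which encodes PD-1, a receptor of activated and exhausted T cells, had 1.31, 1.5, and 1.89 TPM in the controls and 4.29, 3.87, and 3.9 TPM in the treated rats at Year 0.5, 3.22, 4.11, and 3.16 against 3.84, 3.58, and 3.89 TPM at Year 1, and 4.72, 4.48, and 6.69 against 4.33, 2.59, and 2.99 TPM at Year 2. The treated rats were above the controls at Year 0.5, overlapped them at Year 1, and were below them at Year 2. The change over time was in the controls, whose mean went from 1.57 ± 0.299 to 3.5 ± 0.529 and 5.3 ± 1.21 TPM (± SD, n = 3), while the treated means were 4.02 ± 0.233, 3.77 ± 0.163, and 3.3 ± 0.912 TPM. *Pdcd1* rose 2.83-fold with treatment at Year 0.5 (log2 1.5 ± 0.24, edgeR FDR 0.00123) and did not pass the FDR at Year 1 (log2 0.35 ± 0.19, FDR 0.185) or Year 2 (log2 -0.46 ± 0.27, FDR 0.191). *Lag3*, a checkpoint receptor that binds MHC class II, had 5.6, 5.79, and 5.07 TPM in the controls and 4.56, 5.07, and 4.42 TPM in the treated rats at Year 0.5, 7.12, 5.54, and 6.41 against 3.31, 5.6, and 4.85 TPM at Year 1, and 7.71, 10.1, and 6.28 against 3.25, 2.97, and 3.92 TPM at Year 2. It fell 2.05-fold at Year 2 (log2 -1.03 ± 0.23, edgeR FDR 0.0048) after log2 fold changes of -0.08 and -0.22 (FDR 0.746 and 0.479). The call at Year 2 sat at the fold limit and was lost without control replicate 2, without treated replicate 2, and without both rats that stood apart. *Tigit*, a checkpoint receptor of regulatory T cells and NK cells, had 0.438, 1.23, and 0.657 TPM in the controls and 1.52, 3.65, and 2.24 TPM in the treated rats at Year 0.5, 1.05, 0.815, and 2.06 against 0.589, 2.41, and 3.52 TPM at Year 1, and 0.99, 0.323, and 1.07 against 1.38, 1.35, and 0.291 TPM at Year 2. At Year 0.5 it rose 3.63-fold (log2 1.86 ± 0.52, edgeR FDR 0.0209), without overlap but on 3, 7, and 4 counts in the controls and 10, 33, and 15 in the treated rats. The Year 0.5 call was also lost without control replicate 1, control replicate 3, or treated replicate 2. At Year 1 it did not pass (log2 0.94 ± 0.62, FDR 0.256), and at Year 2 it was under the limit for low counts.

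*Cd274*, which encodes PD-L1, the ligand of PD-1 carried by myeloid and epithelial cells, had 17.3, 17.6, and 14.6 TPM in the controls and 18.1, 17, and 19.7 TPM in the treated rats at Year 0.5, 19.5, 19.8, and 16.3 against 23.9, 18.6, and 20.5 TPM at Year 1, and 15, 18.6, and 16.6 against 19, 16.6, and 18.2 TPM at Year 2. The groups overlapped at each time point. The log2 fold change was 0.29 ± 0.11, 0.42 ± 0.12, and 0.32 ± 0.11, with edgeR FDRs of 0.064, 0.020, and 0.0438, so it passed the FDR at Year 1 and Year 2 below the fold limit. The other PD-1 ligand in the set, *Pdcd1lg2*, had 1 to 18 counts per rat and was not tested against treatment.

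**Figure D3:**
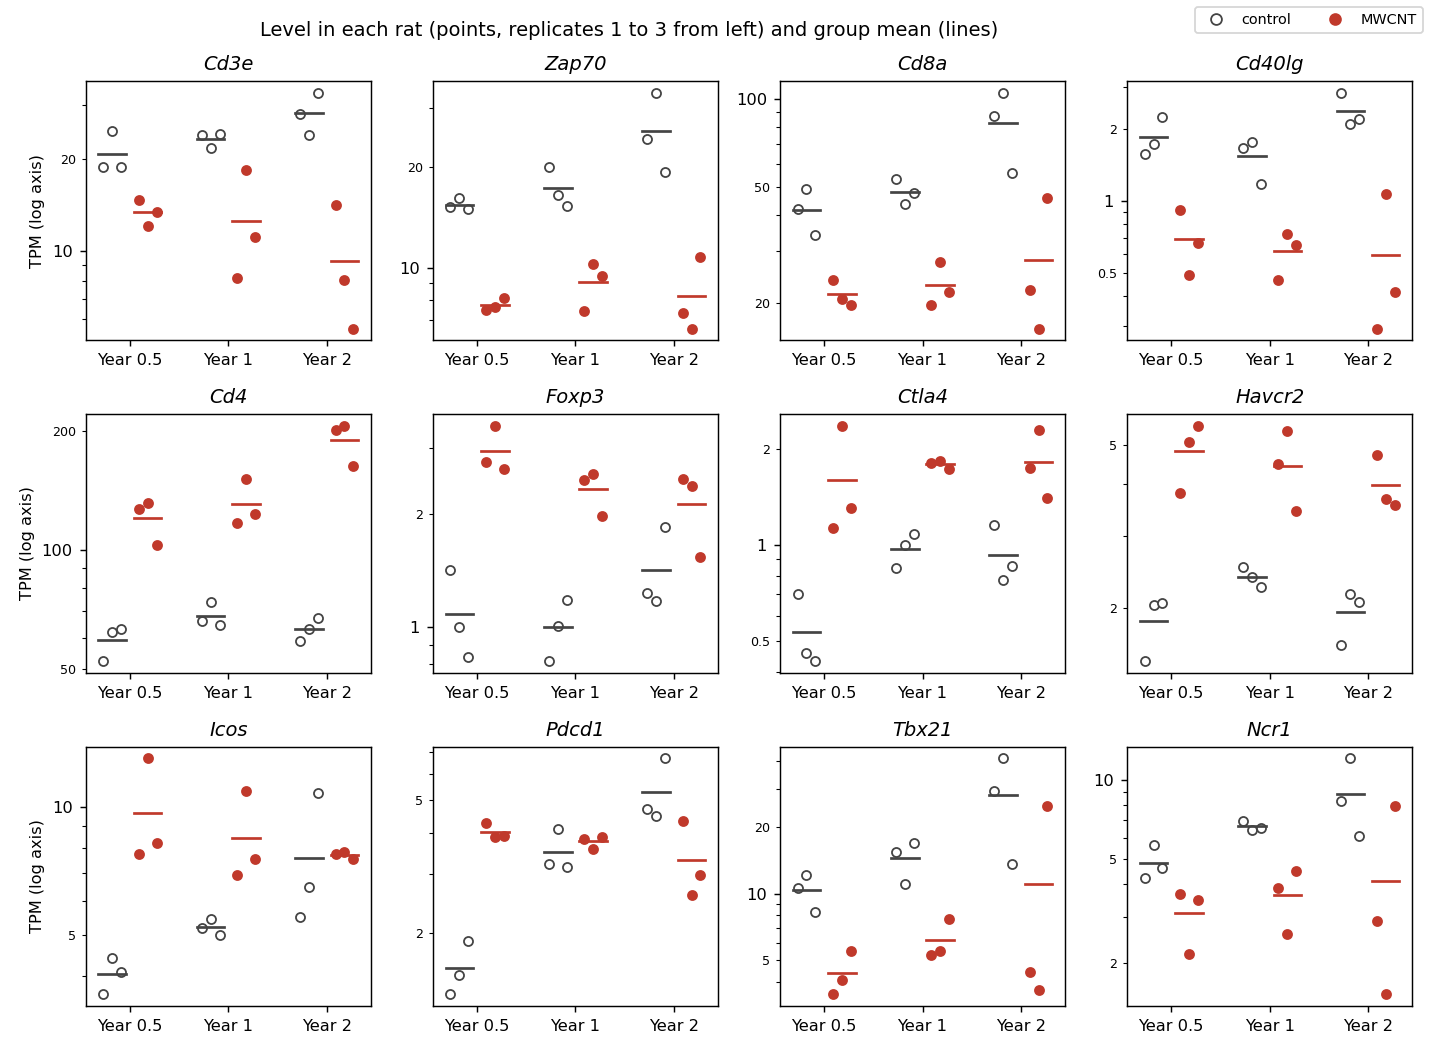
TPM on log axes (a separate scale for each gene) of 12 members in the 18 rats, with open points for controls, filled points for treated rats, and lines for group means. *Cd4*, *Ctla4*, and *Havcr2* separate upward and *Cd3e*, *Zap70*, *Cd8a*, and *Cd40lg* downward at each time point, while *Pdcd1* controls climb from 1.31 to 1.89 TPM at Year 0.5 to 4.48 to 6.69 TPM at Year 2.

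*Foxp3*, the transcription factor of regulatory T cells, had 1.42, 1.0, and 0.833 TPM in the controls and 2.75, 3.44, and 2.64 TPM in the treated rats at Year 0.5, 0.812, 1.01, and 1.18 against 2.47, 2.55, and 1.97 TPM at Year 1, and 1.24, 1.17, and 1.84 against 2.47, 2.38, and 1.54 TPM at Year 2. All treated rats were above all controls at Year 0.5 and Year 1. At Year 2 treated replicate 3 fell below control replicate 3. *Foxp3* rose 2.99-fold at Year 0.5 and 2.74-fold at Year 1 (log2 1.58 ± 0.26 and 1.45 ± 0.23, edgeR FDR 0.00145 and 0.00143), and at Year 2 it was higher by FDR alone (log2 0.81 ± 0.29, FDR 0.041). The Year 2 result was not firm. Its FDR ranged from 0.0217 to 0.143 with 1 rat left out and from 0.0127 to 0.136 under the other alternatives. *Il2ra*, the high-affinity chain of the interleukin-2 receptor that regulatory T cells carry, was higher by FDR alone at Year 0.5 (log2 0.67 ± 0.24, FDR 0.0499), with log2 fold changes of 0.34 and 0.26 later that did not pass. *Il2rb*, the shared beta chain that NK cells carry in large amounts, was lower by FDR alone at Year 1 and Year 2 (log2 -0.51 and -0.94, FDR 0.0141 and 0.0459). At Year 2 its log2 fold change was -1.35 without treated replicate 3 (FDR 0.00845), -0.55 without control replicate 2 (FDR 0.191), and -0.97 without both (FDR 0.00656).

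Within each lung, the regulatory and checkpoint genes were set against the CD3 genes by the log2 ratio of their TPM to the mean TPM of *Cd3d*, *Cd3e*, and *Cd3g*, with 0.1 TPM added. These ratios are a description of 3 rats per group and were not tested. *Foxp3* amounted to 4.54 to 8.59% in the controls and 20.1 to 29.4% in the treated rats at Year 0.5, relative to this CD3 mean. At Year 2 the share was 4.65 to 6.48% in the controls and 21.3 to 32.9% in the treated rats, so that the ratio stayed apart although the levels of *Foxp3* themselves overlapped. The treated mean exceeded the control mean of the log2 ratio by 2.04, 2.1, and 2.3 at Years 0.5, 1, and 2. For *Ctla4* the differences were 2.05, 1.77, and 2.63, for *Icos* 1.86, 1.61, and 1.82, and for *Havcr2* 1.99, 1.8, and 2.74. For *Pdcd1* they were 1.98, 1.06, and 1.07. In all of these the treated and control rats did not overlap at any time point, and this includes *Pdcd1* at Year 2, whose own level was lower in the treated rats. At Year 1 the *Pdcd1* ratio was at most 19.4% in the controls and at least 19.9% in the treated rats. The CD3 genes were themselves lower in the treated rats, so a gene of unchanged level also gains in this ratio. *Icos* at Year 2 had a log2 fold change of only 0.25 beside its ratio difference of 1.82. How many of all genes would separate in this way was not determined. The ratio of *Ctla4* to *Cd28* was higher in every treated rat, by 1.61, 1.36, and 2.1.

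Several other ratios overlapped between the groups at some or all time points. Relative to the CD3 mean, *Cd28*, *Cd8a*, *Tbx21*, *Ncr1*, and *Prf1* overlapped between treated and control rats at all 3 time points, *Lag3* overlapped at Year 2, and *Tigit* at Year 1. At Year 2 the overlap of *Prf1* came from treated replicate 3, at 3.44 on the log2 scale, while the other treated rats, at 1.42 and 1.36, were below the controls (1.96, 2.85, and 1.54). Without both rats that stood apart, *Cd8a*, *Tbx21*, and *Ncr1* still overlapped and *Prf1* did not. *Lag3* was above the controls without overlap at Year 0.5 and Year 1 (by 0.44 and 0.46), *Tigit* at the first and last time points (by 2.24 and 1.96), and *Cd4* at all 3 time points (by 1.68, 1.88, and 3.33). The ratio of *Foxp3* to *Cd4* overlapped at Year 0.5 and Year 1 and was lower in every treated rat at Year 2, by -1.03 on the log2 scale. *Foxp3* thus stood higher relative to the CD3 genes and lower relative to *Cd4* in the treated rats of Year 2. With 1 TPM added in place of 0.1 TPM, the *Foxp3* ratio to the CD3 mean was still higher in treated rats, by 1.55, 1.63, and 2.00.

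**Figure D4:**
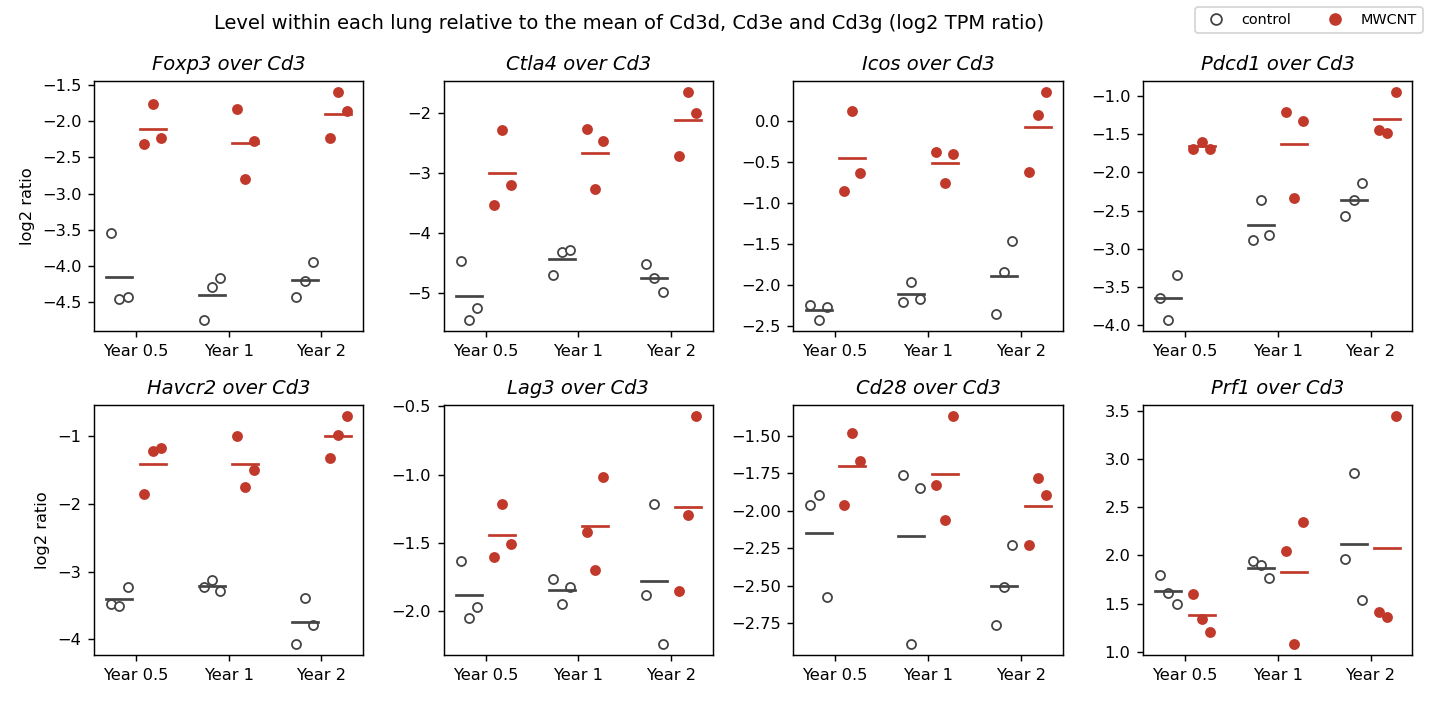
Log2 ratio of the TPM of 8 members to the mean TPM of *Cd3d*, *Cd3e*, and *Cd3g* in each of the 18 rats, with lines for group means. Treated rats (filled) lie above controls (open) without overlap at each time point for *Foxp3*, *Ctla4*, *Icos*, *Pdcd1*, and *Havcr2*, and the groups overlap for *Cd28* and *Prf1*, the latter at Year 2 through treated replicate 3.

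Each transcription factor of effector lymphocytes in the set was lower at 1 or more time points. *Tbx21*, which encodes T-bet, the regulator of type 1 T cells and of NK cell maturation, had 10.6, 12.2, and 8.24 TPM in the controls and 3.51, 4.09, and 5.48 TPM in the treated rats at Year 0.5, 15.5, 11.1, and 17 against 5.29, 5.51, and 7.71 TPM at Year 1, and 29.2, 41.2, and 13.7 against 4.43, 3.66, and 25 TPM at Year 2. The groups were apart at Year 0.5 and Year 1, and at Year 2 treated replicate 3 exceeded control replicate 3. *Tbx21* fell 2.16-fold at Year 0.5 and 2.01-fold at Year 1 (log2 -1.11 ± 0.21 and -1.01 ± 0.2, edgeR FDR 0.00324 and 0.0039). Both calls were close to the fold limit and were lost in a single model of all 18 rats. The Year 0.5 call was also lost without control replicate 2 or treated replicate 1, and the Year 1 call with the replicate block and without control replicate 1 or 3 or treated replicate 1 or 2. At Year 2 the log2 fold change was -1.14 ± 0.65 (FDR 0.175), and it was -2.57 without treated replicate 3 (FDR 0.00195), -0.78 without control replicate 2 (FDR 0.436), and -2.21 without both (FDR 0.00445). *Eomes*, the related T-box factor of cytotoxic cells, was lower by FDR alone at Year 1 (log2 -0.85 ± 0.27, FDR 0.032) and was 4.07, 8.54, and 3.07 TPM in the controls and 1.81, 0.581, and 5.37 TPM in the treated rats at Year 2, where the groups overlapped. Its Year 2 log2 fold change was -0.81 (FDR 0.33), -1.9 without treated replicate 3 (FDR 0.0304), -0.28 without control replicate 2 (FDR 0.786), and -1.38 without both (FDR 0.0936). *Gata3*, the regulator of type 2 T cells that developing T cells also need, had 7.08, 9.9, and 5.79 TPM in the controls and 4.79, 4.0, and 4.81 TPM in the treated rats at Year 0.5, 8.24, 5.79, and 5.0 against 5.64, 2.71, and 3.94 TPM at Year 1, and 8.0, 7.93, and 6.98 against 3.09, 3.46, and 2.84 TPM at Year 2. At Year 2 it fell 2.1-fold without overlap (log2 -1.07 ± 0.16, edgeR FDR 0.000593), and it did not pass the FDR earlier. The *Gata3* call was lost without treated replicate 3 and without both rats that stood apart. The type 1 cytokine gene *Ifng* had 0 to 5 counts per rat and was not tested against treatment. At Year 2 it had 0.799, 0.782, and 0.574 TPM in the controls and 0, 0.218, and 0 TPM in the treated rats. These values rest on too few counts to judge a difference at this depth.

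Among genes of the cytotoxic granule, *Gzmk* and *Prf1* were lower at every time point by FDR alone and DEGs at Year 2. *Gzmk*, a granzyme, had 47.3, 67.4, and 50.5 TPM in the controls and 32.6, 28.1, and 29.5 TPM in the treated rats at Year 0.5, 72.7, 75.7, and 69.4 against 28, 41.3, and 44.6 TPM at Year 1, and 95.4, 141, and 71.8 against 30.1, 21.5, and 44.6 TPM at Year 2. The groups did not overlap, and the controls were highest at Year 2. *Gzmk* fell 2.77-fold at Year 2 (log2 -1.47 ± 0.29, edgeR FDR 0.00245), after log2 fold changes of -0.73 and -0.69 (FDR 0.00353 and 0.00918). *Prf1*, which encodes the pore-forming perforin, had 61.3, 74, and 56.8 TPM in the controls and 42.9, 30.5, and 29.6 TPM in the treated rats at Year 0.5, 93.6, 81.1, and 78.4 against 37.6, 39.2, and 50.9 TPM at Year 1, and 112, 171, and 87.3 against 32.2, 19.2, and 64.8 TPM at Year 2. Treated replicate 3 of Year 2 was the highest of its group but stayed below the controls. *Prf1* fell 2.75-fold at Year 2 (log2 -1.46 ± 0.39, edgeR FDR 0.0122). This value was -2.03 without treated replicate 3 (FDR 0.00118), -1.74 without both rats that stood apart (FDR 0.00236), and -1.17 without control replicate 2 alone, where it missed the limit (FDR 0.0509). *Nkg7*, a granule membrane gene, had 116, 163, and 71.1 against 29.3, 20.8, and 92.6 TPM at Year 2, with the controls first and the groups overlapping. Log2 fold changes of *Nkg7* in order of time were -0.82, -0.72, and -1.09 (FDR 0.0090, 0.00395, and 0.0943), and at Year 2 it was -1.99 without treated replicate 3 (FDR 0.00191), -0.79 without control replicate 2 (FDR 0.282), and -1.7 without both (FDR 0.00439). *Gzmb*, the granzyme most used as a killing marker, had 0 to 165 counts per rat and log2 fold changes of 0.2 ± 0.76, -0.41 ± 0.4, and 0.03 ± 0.58 that did not pass.

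The NK cell receptors had negative fold changes of uneven certainty. *Klrd1*, which encodes CD94, had 9.1, 13.2, and 8.76 TPM in the controls and 6.46, 5.17, and 4.31 TPM in the treated rats at Year 0.5, 14, 11.5, and 12.6 against 4.52, 6.42, and 7.55 TPM at Year 1, and 16.7, 28.2, and 7.39 against 3.92, 2.29, and 8.05 TPM at Year 2. The groups were apart at Year 0.5 and Year 1, whereas at Year 2 treated replicate 3 exceeded control replicate 3. *Klrd1* fell 3.18-fold at Year 2 (log2 -1.67 ± 0.52, edgeR FDR 0.0243) after lower values by FDR alone (log2 -0.82 and -0.8, FDR 0.0199 and 0.012). The Year 2 value was -2.26 without treated replicate 3 (FDR 0.0102), -1.76 without both (FDR 0.0245), and -1.16 without control replicate 2, where it missed the limit (FDR 0.106). It also missed the limit with the replicate block (FDR 0.0836) and without control replicate 1, treated replicate 1, or treated replicate 2 (FDR 0.0594, 0.0711, and 0.0740). *Ncr1*, which encodes NKp46, the receptor most specific to NK cells in the set, had 4.22, 5.62, and 4.62 TPM in the controls and 3.66, 2.16, and 3.48 TPM in the treated rats at Year 0.5, 6.95, 6.46, and 6.53 against 3.86, 2.58, and 4.48 TPM at Year 1, and 8.34, 12.1, and 6.09 against 2.88, 1.52, and 7.95 TPM at Year 2. Every treated rat was below every control at Year 0.5 and Year 1. Its log2 fold change was -0.5 ± 0.23, -0.64 ± 0.18, and -0.9 ± 0.5, with edgeR FDRs of 0.113, 0.0202, and 0.163, so it passed the FDR only at Year 1. At Year 2 the value was -1.78 without treated replicate 3 (FDR 0.00488), -0.62 without control replicate 2 (FDR 0.408), and -1.51 without both (FDR 0.0158). *Klrk1*, which encodes the activating receptor NKG2D, did not pass at any time point (log2 -0.39, -0.35, and -0.54).

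Over time, the values of the members shifted upward in the control rats. From Year 0.5 to Year 2, all 36 members tested had a positive log2 fold change in the controls, with a median of 0.55 beside 0.00 over all genes, and 19 had every Year 2 control above every Year 0.5 control, against 11.5% of all genes. The DEG among them was *Pdcd1* (log2 1.76 ± 0.23, edgeR FDR 0.000821), against 0.633% of all genes. By FDR alone 6 were higher, against 2.65% of all genes. They were *Pdcd1*, *Cd8a* (log2 1.0), *Gzmk* (0.91), *Icos* (0.91), *Lat* (0.79), and *Zap70* (0.74), with FDRs of 0.0462, 0.0355, 0.0449, 0.0263, and 0.0312 for the last 5. The count of DEGs was 8 without control replicate 3 of Year 2 and 2 without control replicate 2 of Year 0.5. In the treated rats the same comparison gave 17 positive and 19 negative values, a median of -0.09, and no DEG by edgeR, against 2.34% of all genes. *Cd4* alone passed the FDR there (log2 0.74 ± 0.13, FDR 0.0010), beside 6.65% of all genes that were higher by FDR alone, and 7 members had an unadjusted p below 0.05. Between Year 0.5 and Year 1 no member was a DEG in controls (0% of all genes) or treated rats (0.0472%), with unadjusted p below 0.05 for 4 and 1 members. DESeq2 gave 1 DEG in the controls, *Pdcd1*. Between Year 1 and Year 2 edgeR also gave none (0.499% of all genes in controls and 0.903% in treated rats), with 8 and 6 members at an unadjusted p below 0.05.

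A test of whether the treatment effect differed between time points singled out *Pdcd1*. Its log2 fold change was lower at Year 2 than at Year 0.5 by -1.96 ± 0.32 (edgeR interaction contrast, FDR 0.0077), and it was the 1 member of 36 to pass, against 1.31% of all genes. The contrast was negative for 34 of 36 members, with a median of -0.56 beside 0.00 over all genes, and 10 had an unadjusted p below 0.05. The differences for *Cd4* (0.64 ± 0.18, FDR 0.0973) and *Icos* (-1.16 ± 0.35, FDR 0.124) did not pass, whereas DESeq2 passed these 2 with *Pdcd1*. No member passed between Year 1 and Year 0.5 by edgeR (0% of all genes, 1 member with an unadjusted p below 0.05). Between Year 2 and Year 1 none passed by edgeR (0.478% of all genes, 9 members with an unadjusted p below 0.05), and 3 passed by DESeq2 (*Cd4*, *Cd5*, and *Cd6*). Of the members downregulated at Year 2 and not at Year 1, *Cd5* and *Cd6* were thus the ones whose difference between these time points passed, and they did so by DESeq2, while edgeR passed *Cd6* without control replicate 1 of Year 1 and neither gene with all rats.

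Several members lie next to each other in the genome. Coordinates in the deposited tables are those of the Rnor_6.0 build. The CD3 genes sit within one stretch of chromosome 8, with *Cd3g* (chr8:49274960-49280901, minus strand), *Cd3d* (chr8:49282460-49287110, plus strand), and *Cd3e* (chr8:49297608-49308806, minus strand) separated by 1.558 and 10.497 kb, and all were lower at Year 2. *Cd4* (chr4:157383052-157408176, minus strand) and *Lag3* (chr4:157425644-157433467, minus strand) are 17.467 kb apart with 1 gene between them, and they moved in opposite directions at Year 2, with log2 fold changes of 1.81 and -1.03. On chromosome 9, *Cd28* (chr9:67546408-67571871, plus strand) lies before *Ctla4* (chr9:67699379-67706065, plus strand) and *Icos* (chr9:67763897-67785580, plus strand), the last of which are neighbours 57.831 kb apart. At Year 2 *Ctla4* was upregulated, *Cd28* downregulated (a call lost in several settings), and *Icos* did not pass. *Cd8b* (chr4:99185885-99202023, plus strand) and *Cd8a* (chr4:99239115-99243351, plus strand) are 37.091 kb apart, and only the latter passed the test. The counting was not stated to use strand, so reads of overlapping genes on opposite strands could not be told apart.

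Further genes of T and NK cells were read from lists outside the 38 symbols. Among T cell signalling genes, 1 of 30 was upregulated and 2 downregulated at Year 0.5, 1 and 1 of 30 at Year 1, and 2 and 9 of 29 at Year 2. Beside this and the following lists, 6.07%, 6.13%, and 8.17% of all genes were upregulated in order of time. The downregulated shares were 3.03%, 4.09%, and 8.22%. At Year 0.5 and Year 1 the counts of DEGs among T cell signalling genes were close to these shares. By FDR alone, 4 of the 30 were higher and 13 lower at each of these time points. Of all genes, 20.2% and 18.6% were at Year 0.5, and 21.6% and 19.6% at Year 1. The median log2 fold change of the list was -0.46 and -0.50. *Tcf7*, a factor of naive and memory T cells, had log2 fold changes of -1.01, -0.83, and -1.65, and *Cd96*, a receptor of T and NK cells, had -1.51 at Year 2. *Thy1*, which fibroblasts and endothelial cells also carry, moved the other way, by 2.92 at Year 2. Cytotoxic and NK genes gave 4 higher and 2 lower of 25 at Year 0.5, 3 and 1 at Year 1, and 1 and 8 at Year 2. Among them *Klrb1c*, *Klre1*, and *Gzma* had log2 fold changes of -2.4, -2.01, and -1.61 at Year 2 (edgeR FDR 0.0267, 0.0154, and 0.00243). *Cst7*, a protease inhibitor also made by myeloid cells, was upregulated at Year 0.5 and Year 1 (1.11 and 1.4).

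Genes of T helper subsets were mostly low. Of 25 found, 15, 16, and 14 could be tested, and 2, 4, and 3 of them were DEGs, against 9.1%, 10.2%, and 16.4% of all genes. At each time point 2 were upregulated, and 0, 2, and 1 were downregulated. *Tnfrsf4*, which encodes OX40, a costimulatory receptor abundant in regulatory T cells, was upregulated at each time point, with log2 fold changes of 2.12, 2.05, and 1.28 (edgeR FDR 0.00615, 0.00317, and 0.0151). *Ccr8*, a chemokine receptor of regulatory and type 2 T cells, was upregulated at Year 0.5 (2.76, FDR 0.00168). *Il1rl1*, the receptor of interleukin-33 on type 2 cells, mast cells, and regulatory T cells, was upregulated at Year 1 and Year 2 (1.16 and 1.97). *Il12rb1*, the receptor chain through which interleukin-12 induces type 1 cells, was downregulated at the same time points (-1.07 and -1.72). Costimulatory and coinhibitory genes outside the set were upregulated in part, with 7 of 22, 7 of 21, and 8 of 21 upregulated and 0, 0, and 1 downregulated. The leading ones were *Vtcn1* (2.26, 2.18, and 3.67), an inhibitory ligand also made by epithelial cells, *Tnfsf9* (2.87, 2.33, and 3.57), the ligand of 4-1BB, *Cd200r1* (1.75, 1.54, and 2.37), an inhibitory receptor of myeloid cells, and *Slamf6* (1.3, 1.84, and 2.22).

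Markers of other cell types moved as well, and their part in the results of the T and NK cell genes was not tested. Of 10 B cell markers, 3, 1, and 3 were downregulated at the 3 time points, while *Jchain*, a gene of antibody-secreting cells, was upregulated (log2 fold changes of 1.31, 1.09, and 1.74). Their summed level was 232 to 616 TPM in control rats and 362 to 1740.1 TPM in treated rats. The summed level of mast cell markers, led in fold change by *Tpsab1* (7.86 at Year 2), did not move the same way at each time point. At Year 0.5 they summed to 105 to 162 TPM in controls and less, 74.2 to 95 TPM, in treated rats. The fold changes then differed from the sum, with 1 upregulated and 1 downregulated of 6 tested and a median log2 fold change of 1.29. At Year 1, 5 of 7 were upregulated and 0 downregulated, and at Year 2, 6 and 1 of 8. The sums were 113 to 119 against 98.3 to 166 TPM at Year 1 and 119 to 142 against 407 to 458 TPM at Year 2. Neutrophil markers summed to 225 to 403 TPM in controls and 444 to 1259 TPM in treated rats. Only 2, 3, and 3 of these 8 markers were upregulated in order of time and 0 downregulated, with median log2 fold changes of 0.08, 0.40, and 0.36. Lung markers summed to 50267 to 71612 TPM in controls and 63139 to 75618 TPM in treated rats, a sum led by *Sftpc*, a surfactant gene, and *Scgb1a1*, a club cell gene. By FDR alone 5, 4, and 5 of 9 lung markers were higher and 4, 3, and 4 lower, among them *Cldn5*, an endothelial gene, with log2 fold changes of -0.84, -0.84, and -1.41 (edgeR FDR 0.00154, 0.000485, and 5.36e-05). Heart muscle markers were detected in every group, at 72.8 to 620.9 TPM in controls and 15.6 to 182 TPM in treated rats. Of 3 thymocyte markers tested at Year 2, 1 was upregulated (*Dntt*, 1.66). At Year 0.5 and Year 1 only 2 could be tested, *Dntt* not among them, and neither was called. *Dntt* was low, with 0.067 to 0.143 TPM in controls and 0.499 to 0.906 TPM in treated rats at Year 0.5. At Year 2 it had 0.135 to 0.51 and 0.884 to 1.259 TPM.

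**Figure D5:**
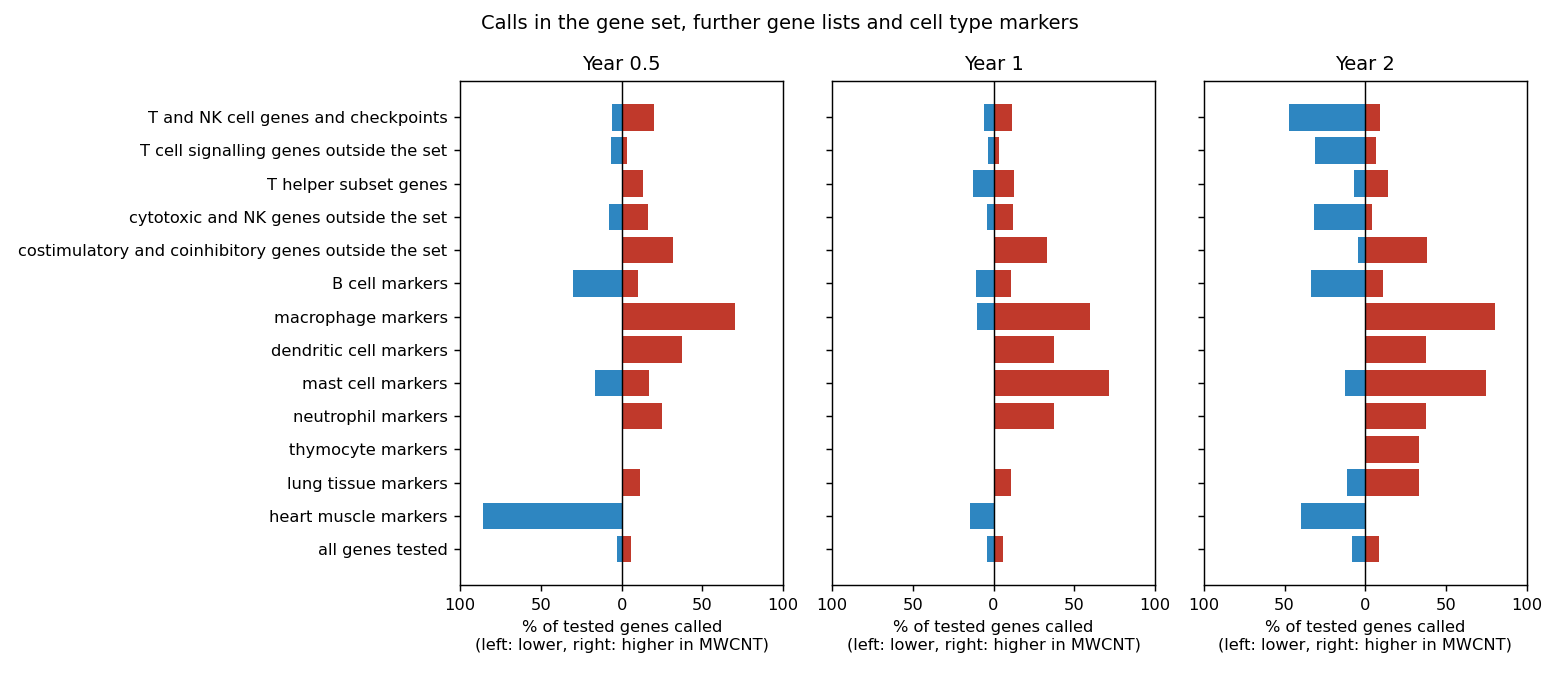
Percentage of tested genes called DEGs in treated against control rats at Years 0.5, 1, and 2, with downregulated genes drawn to the left of 0 and upregulated genes to the right. In the first row, the T and NK cell genes and checkpoints, upregulated genes outnumber downregulated ones at Year 0.5 (7 against 2) and the reverse holds at Year 2 (3 against 16), beside the share over all genes in the last row.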

How the data were processed

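Lung RNA of 18 rats, 3 per group, was sequenced by the authors (NEBNext Ultra II libraries, not stated to keep strand, on a NovaSeq instrument) and mapped with CLC Genomics Workbench. The genome build, Rnor_6.0, comes from the submitters' processing notes. The deposited count of reads per gene (whole numbers) was used for tests, and the deposited TPM values were used for levels. The 36 per-rat RPKM and CPM columns and the authors' columns of their own comparisons (fold changes, p-values, and group means) were not used. Samples were grouped by the sample labels.

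Counts were filtered with filterByExpr (minimum count 10, minimum total 15), scaled by TMM, and fitted by the quasi-likelihood method of edgeR 4.0.16 in R 4.3.3 (limma 3.58.1, DESeq2 1.42.0, Python 3.11.15). Treated and control rats were compared within each time point, and time points and interactions in 1 model of all 18 rats. FDRs were Benjamini-Hochberg adjusted over all genes tested. Interactions were called by FDR alone. *Pdcd1lg2* and *Ifng* failed the filter in every treated against control comparison, and *Tigit* at Year 2. The fits were tested on simulated data. Any 2 rats of a group differed by a chi-square of at least 6.07 per degree of freedom, so each was counted as a separate sample. Precision rests on 3 rats per value and, for genes of few counts, on the counts printed. Replicate numbers were not treated as pairs: deviations of same-numbered rats from their group means correlated between -0.15 and 0.11 over 9 pairs.

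Values in every rat were given for members called in any treated against control, time, or interaction comparison, and for *Cd3e*, *Cd4*, *Cd8a*, *Foxp3*, *Ncr1*, *Pdcd1*, and *Cd274*. Other members were given by counts and fold changes, and from each further list up to 4 DEGs with the largest absolute log2 fold change were named, except 2 genes that are not reported here. The 38 members, the further lists, and the tests were chosen with earlier results of these data known. Alternatives were DESeq2, other scalings and filters, limma on log2 TPM, FDR alone, the replicate block, and leaving out each rat. Leaving out both Year 2 rats that stood apart was added after the data were seen.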

Additional observations from a re-analysis of the deposited data

Results flagged for a closer look

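*Pdcd1*, which encodes PD-1, was singled out because the effect of treatment on it differed between time points by a test of the difference itself. The log2 fold change of treated over control rats was 1.5 ± 0.24 at Year 0.5 and -0.46 ± 0.27 at Year 2 (± SE), and the difference between them was -1.96 ± 0.32 in the edgeR interaction contrast (FDR 0.0077, n = 3 rats per group). Control rats had 1.31, 1.5, and 1.89 TPM at Year 0.5 and 4.72, 4.48, and 6.69 TPM at Year 2, without overlap. Treated rats had 4.29, 3.87, and 3.9 TPM at Year 0.5 and 4.33, 2.59, and 2.99 TPM at Year 2, which overlapped. The contrast passed the FDR in each of the 12 fits that left out 1 rat, and it rested on 20 to 88 counts per rat.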

How the results depend on the processing

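Counts of members called at Year 2 stayed within 1.5 times of 19 under every alternative run. With limma on log2(TPM + 1) the counts were 4 at Year 0.5 and 3 at Year 1, and by FDR alone 23 and 20. From Year 0.5 to Year 2 in controls, 2 members were called without TMM scaling or without a filter, and 6 by FDR alone. In treated rats FDR alone gave 1, both from Year 0.5 and from Year 1 to Year 2. DESeq2 gave 1 in controls from Year 0.5 to Year 1, and 3 in the interactions of Year 2 with Year 0.5 and with Year 1. With 1 TPM added, the log2 ratio differences became -0.088 (Year 0.5) and -0.19 (Year 1) for *Foxp3* over *Cd4*, turned in sign with overlapping groups, 1.55, 1.63, and 2.00 for *Foxp3* over CD3, 1.37 (Year 0.5) and 2.17 (Year 2) for *Ctla4* over CD3, 1.60 for *Pdcd1*, 1.57 for *Tigit*, and 1.65 for *Havcr2* over CD3 at Year 0.5, 2.39 for *Havcr2* over CD3 at Year 2, and 0.93 (Year 0.5) and 1.48 (Year 2) for *Ctla4* over *Cd28*. The cause was not tested.

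With 1 rat left out, counts were 6 to 9 at Year 0.5, 4 to 8 at Year 1, and 14 to 23 at Year 2, the extremes at Year 1 without control replicate 1 and without treated replicate 2. They were 1 to 8 for controls from Year 0.5 to Year 2, 0 to 1 for treated rats over the same span, and 0 to 1 from Year 1 to Year 2 in either. They were 0 to 0 from Year 0.5 to Year 1 in either, 1 to 1, 0 to 0, and 0 to 1 for the interactions of Year 2 with Year 0.5, Year 1 with Year 0.5, and Year 2 with Year 1. Without treated replicate 1 of Year 2 the treated rats gave *Cd3g* in both spans, without treated replicate 2 of Year 2 *Tbx21* from Year 0.5, and without control replicate 3 of Year 2 the controls gave *Cd8a* from Year 1. Without both Year 2 rats that stood apart, the count at Year 2 was 18. *Cd28* at Year 0.5 ranged from -0.33 to 0.16 with 1 rat left out, and changed sign without control replicate 2. For the named genes, the other alternatives kept the side of the threshold in 677 cases, lost a call in 31, and gained one in 6, and leaving out rats did so in 417, 34, and 10.

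With the replicate number as a block, 9, 5, and 16 members were called at Years 0.5, 1, and 2, and the counts between times and for interactions did not change. Same-numbered rats correlated by 0.01 on average and differently numbered ones by 0.00, so the numbers did not pair the rats. With 3 rats per group, genes of few counts such as *Ctla4*, *Tigit*, and *Cd40lg* were the least certain.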
